A study of Mus musculus with 5 samples.

Results

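The mitochondrial ribosomal proteins were taken as every gene whose symbol starts with Mrpl or Mrps and a digit, which gave 78 of the 32285 genes of the deposited matrices. By the known structure of the mammalian mitoribosome, 51 of them encode proteins of the large subunit, among them Mrps18a and Mrps30 in spite of their names, and 26 encode proteins of the small subunit. The remaining gene, Mrps36, encodes a protein that has since been assigned to the 2-oxoglutarate dehydrogenase complex, and it was kept because the rule goes by symbol. All 78 had at least 500 UMIs over the T cells used here, from 743 UMIs for Mrps2 to 21927 for Mrpl33. A UMI (unique molecular identifier) counts 1 captured RNA molecule.

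The mitoribosome translates the few messages made from mitochondrial DNA, all of which code for core proteins of the respiratory chain and the ATP synthase. Its RNAs are made inside the organelle, but all its proteins are encoded in the nucleus, made in the cytosol and imported, so building the particle draws on both genomes. Naive T cells are small and quiescent, and activation through the T cell receptor (TCR) is known to be followed by growth and by an increase in mitochondrial mass and translation. Irf4 and Nr4a1 are early target genes of TCR signaling in T cells, a transcription factor whose level follows signal strength and an orphan nuclear receptor.

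The samples were mouse OT-II CD4 T cells, which carry a transgenic TCR for an ovalbumin (OVA) peptide on MHC class II, from the spleen of a naive mouse. Antigen-presenting fibroblasts of the tumor stroma (apCAFs) were added overnight in all groups but 1, and single cells were profiled with the 10x Genomics 5′ chemistry. The 5 groups were coculture with rKPC apCAFs plus OVA, coculture with sKPC apCAFs plus OVA, the same cocultures with DMSO, and OT-II cells alone without treatment, with 1 sample each. All groups share the OT-II transgene, and rKPC and sKPC are 2 mouse pancreatic tumor clones from whose tumors the fibroblasts were sorted. Ages are not given in the labels. The design asks how the fibroblasts and the peptide alter the T cells, but that question could not be put to these genes: the barcodes carry 5 library suffixes, 3 in matrix G and 2 in matrix H, while the labels tie 2 samples to G and the others to H, so no library could be assigned to a culture. The libraries are called Ga, Gb, Gc, Ha and Hb, and differences between them carry no meaning for culture, clone or peptide here.

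Of 25623 barcodes, 22874 had at least 500 UMIs, at most 10% mitochondrial UMIs and a UMI of Cd3d, Cd3e or Cd3g, with 3081 (Gb) to 6419 (Gc) per library and medians of 7928 (Gb) to 8767.5 (Ga) UMIs per cell. Any pair of libraries shared 2 to 14 barcode sequences. A deeper cell is more likely to hold a UMI of any gene, so cells with at least 4000 UMIs were thinned to 4000 UMIs each, and only then split into cells with a UMI of Irf4 or Nr4a1, called Irf4/Nr4a1+ below, and cells without one, called Irf4/Nr4a1-. Thinning left out 196 (Gb) to 401 (Gc) shallower cells per library. Irf4/Nr4a1+ cells were 999 of 4947 in Ga (20.2%) and 1068 of 6018 in Gc (17.7%). They were 32 of 2885 in Gb (1.11%), 35 of 3882 in Ha (0.902%) and 16 of 3696 in Hb (0.433%). Without thinning the shares were 25.2% (Ga), 22.5% (Gc), 2.21% (Gb), 2.05% (Ha) and 1.3% (Hb). Among 129 cells with erythroid markers and no Cd3 UMI, which should lack both genes, 1.55% held such a UMI (0.188 to 5.49, exact binomial interval) at the same depth, with a median of 9002 UMIs before thinning. By library these cells were 2 of 27 in Gc (7.41%, 0.910 to 24.3), and 0 of 26 in Ga, 28 in Gb, 22 in Ha and 26 in Hb. Approximate limits for these shares of 0, taken as 3 divided by the number of cells, were 11.5%, 10.7%, 13.6% and 11.5%. The shares of T cells in Gb, Ha and Hb were below the pooled share and under those limits. The pooled share rests on 2 cells of Gc and the limits are wide, so this check could not tell background from expression. A Cd69 UMI was found in 21.9% of Irf4/Nr4a1+ cells and 6.59% of Irf4/Nr4a1- cells of Gb. The shares were 25.7% and 5.04% in Ha, and 25% and 5.16% in Hb. For Il2ra the cells were, in the same order, 7 of 32 and 57 of 2853 in Gb. They were 6 of 35 and 84 of 3847 in Ha, and 3 of 16 and 46 of 3680 in Hb. The comparison rests on Ga and Gc, the libraries with at least 500 Irf4/Nr4a1+ cells. Values are summed UMIs of a class in a library, scaled to its total as CPM, intervals are 95% and cover counting error only, and with unassigned libraries and no replicates no test was run.

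Irf4/Nr4a1+ cells devoted a larger share of their RNA to the mitoribosome. The 78 genes summed to 4325 CPM in Irf4/Nr4a1+ cells of Ga (4261 to 4390), against 2736 CPM in Irf4/Nr4a1- cells of Ga (2710 to 2762), a log2 ratio of 0.66 (0.64 to 0.69). In Gc the sums were 4007 CPM in Irf4/Nr4a1+ cells (3947 to 4068) and 2598 CPM in Irf4/Nr4a1- cells (2575 to 2620), a log2 ratio of 0.63 (0.60 to 0.65). Irf4/Nr4a1- cells of all 5 libraries lay between 2537 CPM (Gb) and 2736 CPM (Ga), so both sums in Irf4/Nr4a1+ cells of Ga and Gc stood above every library's sum in Irf4/Nr4a1- cells. In the 3 other libraries the few Irf4/Nr4a1+ cells had 2516 (Gb), 2779 (Ha) and 3156 (Hb) CPM, with log2 ratios of -0.01 (-0.17 to 0.15), 0.07 (-0.07 to 0.22) and 0.22 (0.02 to 0.42). Matrices G and H were aggregated separately, which bears on every level set across them.

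**Figure D1:**
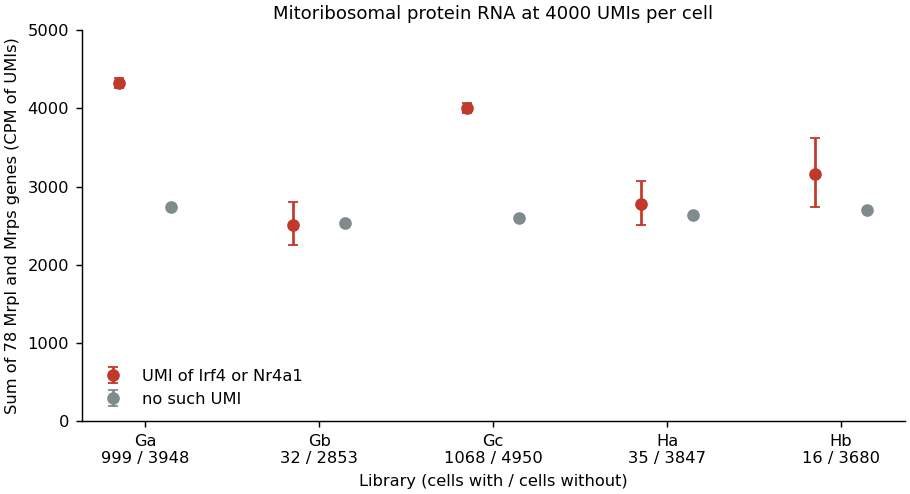
Summed CPM of the 78 genes (vertical axis, from 0) in Irf4/Nr4a1+ cells (red, left) and Irf4/Nr4a1- cells (grey, right) of each library, with 95% Poisson intervals and the number of cells under each name. The red points of Ga (4325 CPM) and Gc (4007 CPM) stand apart, while the grey points of the 5 libraries lie between 2537 and 2736 CPM.

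The shift was seen in the middle of the cell distribution as well as in the sum. At 4000 UMIs, the median Irf4/Nr4a1+ cell of Ga held 17 UMIs of these genes (10th to 90th percentile 9 to 27), and the median Irf4/Nr4a1- cell held 11 (6 to 16). In Gc the medians were 15 UMIs (8 to 25) in Irf4/Nr4a1+ cells and 10 UMIs (6 to 15) in Irf4/Nr4a1- cells. The median number of the 78 genes detected per cell was 14 in Irf4/Nr4a1+ cells and 9 in Irf4/Nr4a1- cells of Ga, and 13 and 9 in Gc. The distributions overlapped, so single cells of both classes shared the same values. Before thinning, Irf4/Nr4a1+ cells were also deeper, with medians of 10493 UMIs in Ga and 10209.5 in Gc, against 8647.5 and 8454 in Irf4/Nr4a1- cells. The same cells carried 50.8 UMIs of the 78 genes per Irf4/Nr4a1+ cell and 25.3 per Irf4/Nr4a1- cell in Ga, and 48.9 and 23.9 in Gc, ratios of 2.01 and 2.04 beside depth ratios of 1.24 and 1.3.

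In Ga and Gc, cells with more UMIs of the class genes had higher sums. In Ga the sum was 2736 CPM in the 3948 cells with none, 3327 in the 269 cells with 1, 4281 in the 106 with 2 and 4763 in the 624 with 3 or more. The same series in Gc read 2598 CPM in 4950 cells, 3072 in 313, 3713 in 130 and 4536 in 625. The order was the same in both libraries. Mrps6 followed it with 39.1, 92.0, 191 and 237 CPM in Ga and 43.0, 79.1, 142 and 258 CPM in Gc. Mrpl34 was lowest in the cells with 3 or more class UMIs but did not fall steadily. In the same order it read 40.1, 31.6, 33.0 and 27.2 CPM in Ga and 36.0, 39.1, 44.2 and 21.6 CPM in Gc.

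**Figure D2:**
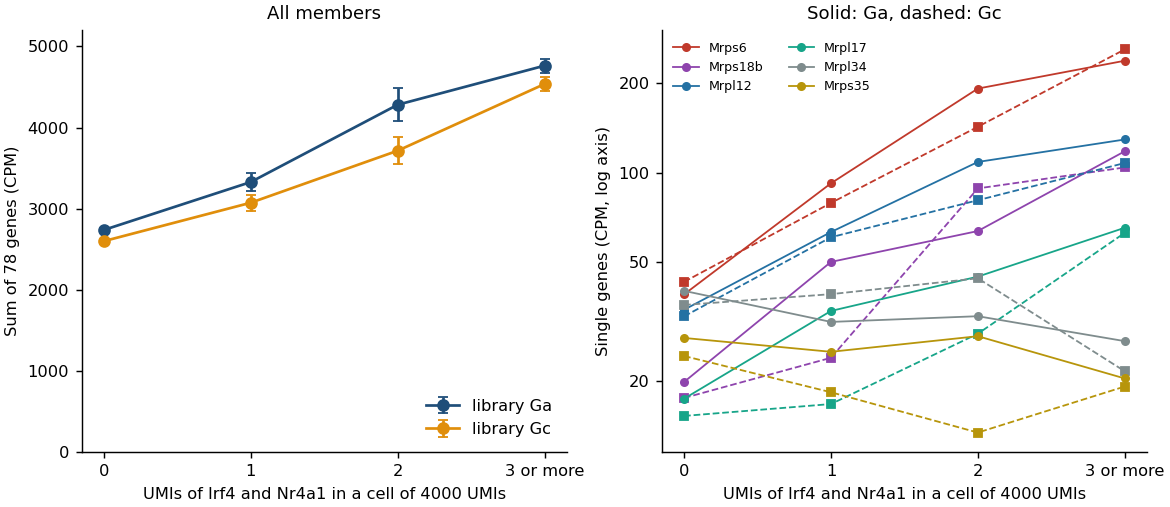
Left, summed CPM of the 78 genes by the number of Irf4 and Nr4a1 UMIs in a thinned cell, with 95% Poisson intervals. Right, CPM of 6 single genes on a log axis, solid for Ga and dashed for Gc, where Mrps6, Mrps18b, Mrpl12 and Mrpl17 climb and Mrpl34 and Mrps35 end below their start.

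Gene by gene, 36 of the 78 members (46.2%) were at least 1.5-fold higher in Irf4/Nr4a1+ cells than in Irf4/Nr4a1- cells in both Ga and Gc, against 15.8% of the 11250 measured genes. The count was 41 in Ga, where 19.1% of measured genes passed, and 39 in Gc, where 18.8% passed. No member was 1.5-fold lower in either library, against 25.2% of measured genes in Ga, 22.2% in Gc and 17.8% in both. At 2-fold, 11 members passed in both libraries beside 7.97% of measured genes, namely Mrps6, Mrps18b, Mrpl12, Mrpl16, Mrpl17, Mrpl19, Mrpl21, Mrpl33, Mrpl39, Mrpl50 and Mrpl52. Ratios above 1 in both libraries were seen for 65 members (40.4% of measured genes) and ratios below 1 in both for 6 (46.6%). Among genes with at least 2000 UMIs, 35 of 77 members passed 1.5-fold in both libraries, beside 16.3%. With 13 members between 1.5-fold and 1.7-fold and 13 between 1.3-fold and 1.5-fold in the mean of both libraries, the count depends on where the line is drawn.

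The libraries gave like ratios for most members. The log2 ratio in Ga minus that in Gc had a median of 0.04 and was within 0.3 for 66 of 78 members, from -0.63 (Mrps22) to 0.53 (Mrps2, the member with the fewest UMIs). In the small Irf4/Nr4a1+ classes the median member had only 3.5 (Gb), 4.5 (Ha) and 2 (Hb) UMIs, and 22, 23 and 32 members passed 1.5-fold upwards while 14, 15 and 13 passed downwards. Beside 30.5%, 32.2% and 42% of measured genes upwards and 17.6%, 15% and 15.8% downwards, these counts say little about single members.

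**Figure D3:**
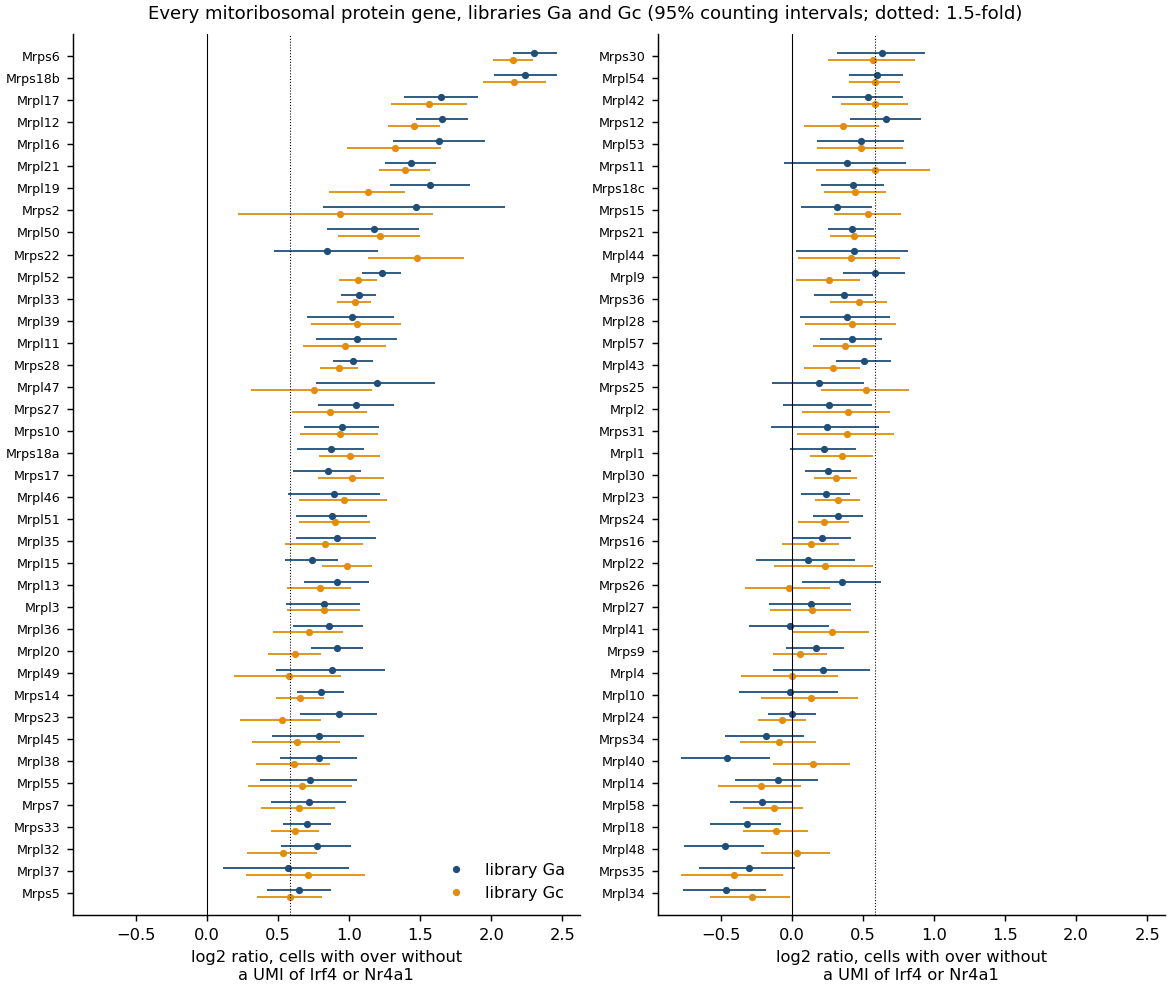
Log2 ratio of Irf4/Nr4a1+ over Irf4/Nr4a1- cells for each of the 78 genes, ordered by the mean of Ga (blue) and Gc (orange), with 95% counting intervals, a solid line at no difference and a dotted line at 1.5-fold. Mrps6 and Mrps18b stand at the top with ratios above 2 on the log2 scale, and the genes at the foot of the right panel have means below 0.

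Promoters of 5 members are shown, of 4 genes with large ratios and of Mrpl34, the gene with the lowest mean log2 ratio of Ga and Gc. Each is 250 bases before to 50 bases after the start in RefSeq on GRCm38.p6, read 5′ to 3′ along the gene's strand. Capitals mark matches, on either strand, to short strings of factors known for nuclear genes of mitochondrial proteins, namely CACGTG (the E-box, bound by Myc), GCGCA followed by any base and GCGC (NRF1), CCGGAAG (ETS factors such as GABP) and AAGATGGCG (YY1). The ETS and YY1 strings can overlap by their AAG.
Mrps6 (chr16:92058086-92058385, plus strand): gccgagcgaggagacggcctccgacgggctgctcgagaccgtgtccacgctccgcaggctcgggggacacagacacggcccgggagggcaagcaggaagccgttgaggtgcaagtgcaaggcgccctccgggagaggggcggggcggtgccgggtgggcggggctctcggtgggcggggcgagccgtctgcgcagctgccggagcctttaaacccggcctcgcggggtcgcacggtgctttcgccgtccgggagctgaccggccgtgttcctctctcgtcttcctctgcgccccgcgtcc
Mrps18b (chr17:35916391-35916690, minus strand): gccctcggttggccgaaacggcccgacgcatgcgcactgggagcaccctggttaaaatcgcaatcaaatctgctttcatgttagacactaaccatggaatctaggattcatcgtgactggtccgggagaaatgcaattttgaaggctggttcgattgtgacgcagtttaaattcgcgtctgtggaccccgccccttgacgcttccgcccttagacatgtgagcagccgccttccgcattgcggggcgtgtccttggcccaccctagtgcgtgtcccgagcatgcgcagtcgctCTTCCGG
Mrpl12 (chr11:120484387-120484686, plus strand): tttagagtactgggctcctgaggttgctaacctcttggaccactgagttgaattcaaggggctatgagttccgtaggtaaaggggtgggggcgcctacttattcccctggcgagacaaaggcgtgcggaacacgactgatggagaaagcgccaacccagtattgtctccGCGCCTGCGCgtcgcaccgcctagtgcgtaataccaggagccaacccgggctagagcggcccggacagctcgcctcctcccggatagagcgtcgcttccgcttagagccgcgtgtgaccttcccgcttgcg
Mrpl17 (chr7:105811038-105811337, minus strand): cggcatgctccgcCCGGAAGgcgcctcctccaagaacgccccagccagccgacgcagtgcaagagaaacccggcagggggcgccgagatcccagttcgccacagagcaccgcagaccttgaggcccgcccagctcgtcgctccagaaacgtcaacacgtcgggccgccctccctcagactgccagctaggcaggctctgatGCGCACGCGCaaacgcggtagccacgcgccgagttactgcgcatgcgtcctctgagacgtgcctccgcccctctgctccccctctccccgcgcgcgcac
Mrpl34 (chr8:71464676-71464975, plus strand): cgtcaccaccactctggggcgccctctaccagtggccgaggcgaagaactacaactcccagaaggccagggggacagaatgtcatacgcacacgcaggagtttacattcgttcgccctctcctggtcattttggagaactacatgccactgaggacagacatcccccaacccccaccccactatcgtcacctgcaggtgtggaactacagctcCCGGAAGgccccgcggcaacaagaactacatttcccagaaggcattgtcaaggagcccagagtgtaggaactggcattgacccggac

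In these windows the ETS string appears as its reverse complement at the end of the Mrps18b window and reads forward in Mrpl17 and Mrpl34. The NRF1 string is held by Mrpl12 and Mrpl17. The Mrps6 window holds no match, which says only that these letters are not in it. RefSeq windows matched 69 of the 78 genes, with 75 promoters in all. The ETS string was in 34.7% of the member promoters against 8.86% of all 32851 promoters, the NRF1 string in 17.3% against 4.6%, the YY1 string in 10.7% against 1.40% and the E-box in 9.33% against 7.15%. Promoters of members past 1.5-fold in both libraries and promoters of the other members held them at 36.7% and 33.3% for ETS, 13.3% and 20% for NRF1, 13.3% and 8.89% for YY1, and 6.67% and 11.1% for the E-box, over 30 and 45 promoters, and these differences were not tested. A match is a string of letters and was not tested for binding.

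Among small subunit genes, 12 of 26 passed 1.5-fold in both libraries and none was 1.5-fold lower. Of all measured genes 15.8% were higher and 17.8% lower in both. The median log2 ratios of the small subunit genes were 0.66 in Ga and 0.56 in Gc. Mrps6, the mitochondrial form of the bacterial protein S6, had the highest mean log2 ratio of Ga and Gc. It stood at 193 CPM in Irf4/Nr4a1+ cells and 39.1 CPM in Irf4/Nr4a1- cells of Ga, and at 192 and 43.0 CPM in Gc, log2 ratios of 2.30 (2.15 to 2.46) and 2.16 (2.02 to 2.30). The folds were 4.94 in Ga and 4.46 in Gc, where Mrps18b was at 4.48-fold. In GENCODE vM21, however, Mrps6 (chr16:92058270-92112227, plus strand) overlaps Slc5a3, a myo-inositol transporter gene on the same strand, and both share bases of their first exons. The sources used here do not give how reads common to both were assigned, so the split between them is uncertain. Slc5a3 itself stood at 72.8 and 63.0 CPM in Irf4/Nr4a1+ cells of Ga and Gc, against 13.2 and 16.3 CPM in Irf4/Nr4a1- cells. Without Mrps6, an alternative chosen after seeing the data, the log2 ratio of the sum was 0.62 in Ga and 0.58 in Gc.

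Mrps18b (chr17:35910379-35916389, minus strand) has no such partner on its own strand. It is 1 of 3 mammalian relatives of the bacterial protein S18, and its protein sits in the small subunit. Mrps18b was at 93.8 and 19.9 CPM in Irf4/Nr4a1+ and Irf4/Nr4a1- cells of Ga, and at 78.7 and 17.6 CPM in Gc, log2 ratios of 2.24 (2.02 to 2.46) and 2.16 (1.94 to 2.38). In Irf4/Nr4a1- cells of the 5 libraries it ranged from 16.6 CPM in Gb to 19.9 CPM in Ga. The other relatives had smaller ratios. Mrps18a, in the large subunit, had 56.3 and 30.8 CPM in the same classes of Ga and 59.5 and 29.6 CPM in Gc (log2 ratios 0.87 and 1.01). Mrps18c, in the small subunit, had 57.6 and 42.7 CPM in Ga and 52.9 and 38.9 CPM in Gc, ratios of 0.43 (0.21 to 0.65) and 0.45 (0.22 to 0.66). The intervals of the log2 ratios of Mrps18b and Mrps18c were apart in both libraries.

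Other small subunit genes spread from Mrps2 and Mrps22 at the upper end to Mrps35 at the lower. Mrps2, the homolog of bacterial S2, rested on 37 and 27 UMIs in Irf4/Nr4a1+ cells of Ga and Gc and had 9.26 and 6.32 CPM there, against 3.36 and 3.33 CPM in Irf4/Nr4a1- cells. Mrps22, a protein without a bacterial counterpart, had log2 ratios of 0.85 (0.47 to 1.20) in Ga and 1.48 (1.13 to 1.81) in Gc. Mrps28 and Mrps21 were chosen for their UMI totals. Mrps28 had 152 CPM in Irf4/Nr4a1+ cells of Ga and of Gc, against 74.7 and 79.7 CPM in Irf4/Nr4a1- cells. Mrps21, the homolog of bacterial S21, had 105 and 95.3 CPM in Irf4/Nr4a1+ cells of Ga and Gc, against 78.4 and 70.5 CPM in Irf4/Nr4a1- cells. Mrps35 went the other way, with 22.5 and 18.3 CPM in Irf4/Nr4a1+ cells of Ga and Gc and 27.9 and 24.3 CPM in Irf4/Nr4a1- cells. Its log2 ratios of -0.30 (-0.65 to 0.02) and -0.40 (-0.78 to -0.06) were within 1.5-fold.

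Among large subunit genes, 24 of 51 passed 1.5-fold in both libraries and none was 1.5-fold lower, beside 15.8% and 17.8% of measured genes. Their median log2 ratios were 0.63 in Ga and 0.59 in Gc. The stalk recruits translation factors to the ribosome. Of its 5 listed members Mrpl12, Mrpl11 and Mrpl54 passed 1.5-fold in both libraries. With so few genes this count is not read as particular to the stalk. Mrpl12, the homolog of the bacterial stalk protein L7/L12, had 109 and 34.7 CPM in Irf4/Nr4a1+ and Irf4/Nr4a1- cells of Ga and 90.6 and 33.0 CPM in Gc, log2 ratios of 1.65 (1.47 to 1.84) and 1.46 (1.27 to 1.64). Mrpl10, the base on which Mrpl12 sits, had 21.8 and 22 CPM in the same classes of Ga and 21.3 and 19.4 CPM in Gc. The intervals of the log2 ratios of Mrpl12 and Mrpl10 were apart in both libraries.

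Around the exit of the peptide tunnel, where new chains leave the particle, 3 of 6 listed members passed 1.5-fold in both libraries. The share of measured genes was 15.8%, and so short a list is not read as particular to this part. Mrpl17, the homolog of bacterial L17, had 54.8 and 17.5 CPM in Irf4/Nr4a1+ and Irf4/Nr4a1- cells of Ga and 45.2 and 15.3 CPM in Gc. Mrpl45, which anchors the particle to the inner membrane, had 29.0 and 16.8 CPM in Ga and 27.4 and 17.7 CPM in Gc. Mrpl24, a neighbor of both at the tunnel exit, had 90.6 and 90.5 CPM in Ga and 81.2 and 85.3 CPM in Gc, log2 ratios of 0.00 (-0.17 to 0.17) and -0.07 (-0.24 to 0.10). With these UMIs a ratio of 1.5-fold lay outside the interval of Mrpl24 in both libraries.

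The central protuberance faces the small subunit and in mammals holds a transfer RNA in place of 5S ribosomal RNA. Of 8 listed members 4 passed 1.5-fold in both libraries (Mrpl38, Mrpl46, Mrpl52 and Mrpl55), beside 15.8% of measured genes. This short list too is not read as particular to its part. Mrpl52 had 176 and 75.3 CPM in Irf4/Nr4a1+ and Irf4/Nr4a1- cells of Ga and 154 and 73.6 CPM in Gc. Mrpl18, the homolog of the bacterial 5S-binding protein L18, had 40.3 and 50.3 CPM in Ga and 45.2 and 48.8 CPM in Gc. Mrpl40 and Mrpl48 were lower in Irf4/Nr4a1+ cells of Ga, with log2 ratios of -0.45 and -0.47, and near 0 in Gc, with 0.15 and 0.03.

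The other large subunit genes named by the rule lay at both ends. Mrpl16, whose bacterial homolog lies near the peptidyl transferase center, had 36.5 and 11.8 CPM in Irf4/Nr4a1+ and Irf4/Nr4a1- cells of Ga and 27.9 and 11.2 CPM in Gc. Mrpl21 had 107 and 39.7 CPM in Ga and 93.2 and 35.5 CPM in Gc, and Mrpl19, a homolog of bacterial L19, had log2 ratios of 1.57 and 1.13. Mrpl50, which has no bacterial counterpart, had log2 ratios of 1.17 in Ga and 1.21 in Gc. Mrpl33, with the most UMIs, had 204 and 97.2 CPM in Ga and 192 and 93.5 CPM in Gc. Mrpl30 had 102 and 85.0 CPM in Ga and 103 and 83.0 CPM in Gc, within 1.5-fold.

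At the lower end, Mrpl34 had 29.0 and 40.1 CPM in Irf4/Nr4a1+ and Irf4/Nr4a1- cells of Ga and 29.5 and 36.0 CPM in Gc, log2 ratios of -0.46 (-0.77 to -0.18) and -0.28 (-0.57 to -0.01). Mrpl58, a peptidyl-tRNA hydrolase built into the large subunit, had 53.8 and 62.3 CPM in Ga and 52.0 and 56.8 CPM in Gc. Mrpl14, at the face toward the small subunit, had log2 ratios of -0.10 and -0.22. All these lay within 1.5-fold. Mrps36, the gene outside the mitoribosome, had 63.8 and 49.5 CPM in Ga and 63.7 and 46.0 CPM in Gc, log2 ratios of 0.37 (0.16 to 0.57) and 0.47 (0.27 to 0.67).

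The members were also listed by whether each is the named counterpart of a bacterial ribosomal protein. Of 46 such members 23 passed 1.5-fold in both libraries, beside 15.8% of measured genes, with median log2 ratios of 0.69 in Ga and 0.59 in Gc. Of the other 31, a list that holds the S18 relatives Mrps18a and Mrps18b, 13 passed, with medians of 0.60 and 0.58. The mitoribosomal proteins with other names went both ways. Chchd1 had 118 and 49.7 CPM in Irf4/Nr4a1+ and Irf4/Nr4a1- cells of Ga and 114 and 45.5 CPM in Gc. Gadd45gip1 had log2 ratios of 1.10 in Ga and 0.98 in Gc, and Aurkaip1 0.60 and 0.62. These 3 of 5 passed 1.5-fold in both libraries, beside the same 15.8% of measured genes. Dap3, a GTP-binding protein of the small subunit, had 44.3 and 62.1 CPM in Irf4/Nr4a1+ and Irf4/Nr4a1- cells of Ga and 48.5 and 61.8 CPM in Gc.

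The other lists of mitochondrial gene expression had smaller shares past 1.5-fold in both libraries, to be read beside 15.8% of measured genes higher and 17.8% lower. Of 22 assembly factors 4 were higher and 0 lower, led by the ribosomal RNA methyltransferase Mrm3 (log2 ratios 1.80 and 1.75) and the RNA-binding protein Fastkd2 (1.44 and 1.88), while the assembly factor Rbfa had -0.55 and -0.43. Of 14 translation factors and partners 4 were higher, among them the ribosome recycling factor Mrrf (1.23 and 1.41) and the messenger RNA stability factor Slirp (1.24 and 1.21). The release factor gene Mtrf1 was lower, on 4 UMIs in Irf4/Nr4a1+ cells of each library. Of 17 mitochondrial tRNA synthetases 2 were higher and 1 lower, and of 5 transcription factors of the organelle 1, Tefm, was higher. The mitochondrial RNA polymerase gene Polrmt had log2 ratios of 0.09 and 0.01. The RNAs translated by the mitoribosome, the 13 mt- genes, had a range of -0.11 (mt-Co1) to 0.20 (mt-Cytb) in the mean of Ga and Gc, and none passed.

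Of 88 measured nuclear genes named for the respiratory chain 27 were higher and 1 lower, with median log2 ratios of 0.40 in both libraries. Of 79 measured genes with cytosolic ribosomal symbols 7 were higher and 0 lower, with medians of 0.05 and 0.06. Of all measured genes 15.8% were higher and 17.8% lower in both libraries. The respiratory chain list was above that share of higher genes and the cytosolic ribosomal list below it. The 2 highest genes of the cytosolic ribosomal list, Rps19bp1 and Rpl7l1, do not encode ribosomal proteins. The median of all measured genes was -0.07 in Ga and -0.04 in Gc. The 6 genes listed for T cell activation, such as Cd69 (771 and 37.2 CPM in Irf4/Nr4a1+ and Irf4/Nr4a1- cells of Ga) and Myc (120 and 7.6 CPM), all passed 1.5-fold in both libraries. They were listed with earlier results of these data known, so they are no independent check of the class.

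**Figure D4:**
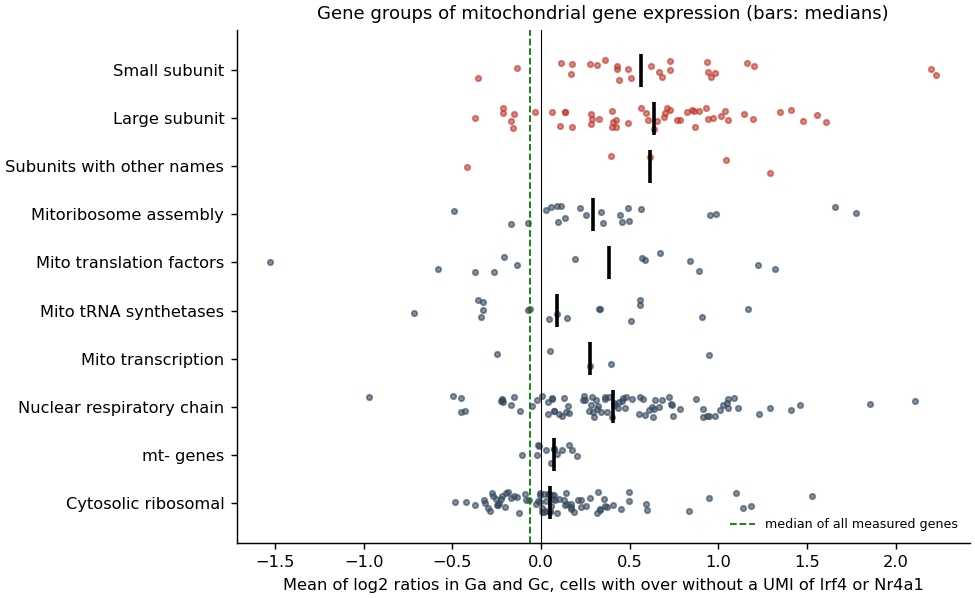
Mean of the log2 ratios in Ga and Gc, Irf4/Nr4a1+ over Irf4/Nr4a1- cells, 1 point per measured gene and 1 row per list, with black bars at list medians and a dashed line at the median of all measured genes (-0.06). Both mitoribosome subunits have medians above those of the mt- genes (0.07) and the cytosolic ribosomal genes (0.05).

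The classes also differed in marker RNA. Whether this reflects cell make-up or the level of each RNA per cell, and what part it has in the ratios, was not tested. A Cd4 UMI was found in 22.4% of Irf4/Nr4a1+ cells and 46.9% of Irf4/Nr4a1- cells of Ga, and in 25.5% and 47.3% in Gc. A UMI of the gamma-delta TCR gene Trdc was found in 6.41% and 17.6% in Ga, and in 4.96% and 15.7% in Gc. For Cd8a the shares were 0% and 0.101% in Ga, and 0% and 0.162% in Gc. The shares above are at 4000 UMIs. In cells with a Cd4 UMI before thinning and none of Foxp3 or Trdc the log2 ratio of the sum was 0.53 in Ga and 0.48 in Gc. It rested on 362 and 410 Irf4/Nr4a1+ cells, fewer than the 500 asked of a library, and deeper cells are likelier to hold a Cd4 UMI. Summed T cell markers stood at 11638 and 8753 CPM in Irf4/Nr4a1+ and Irf4/Nr4a1- cells of Ga and at 6481 and 5232 CPM in Gc. Irf4/Nr4a1- cells of Gb, Ha and Hb had 8703, 9380 and 8882 CPM of these markers, so Gc stood below every other library. The cause was not tested. Summed regulatory T cell markers stood at 112 and 251 CPM in Ga and at 108 and 258 CPM in Gc. In the small classes they went the other way, with 766 and 220 CPM (Gb), 871 and 252 CPM (Ha) and 906 and 178 CPM (Hb). Summed gamma-delta T cell markers stood at 31.8 and 110 CPM in Ga and at 24.6 and 95.2 CPM in Gc. Summed B cell markers stood at 5.76 and 8.3 CPM in Ga and at 11.2 and 5 CPM in Gc, but at 243 and 8.9 CPM in Ha. The 3 NK cell markers stood at 0 and 6.59 CPM in Ga and at 0.702 and 3.74 CPM in Gc. Fibroblast markers were at 1.75 and 2.47 CPM in Ga and at 3.75 and 2.17 CPM in Gc. Erythroid markers were at 48 and 1473 CPM in Ga and at 430 and 908 CPM in Gc. Myeloid markers were at 8.51 and 18.4 CPM in Ga and at 15 and 18 CPM in Gc.

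Over all kept T cells the 78 genes summed to 3128 CPM in Ga (3112 to 3143), 2905 in Gc (2891 to 2919), 2675 in Hb (2658 to 2692), 2665 in Ha (2649 to 2682) and 2574 in Gb (2555 to 2594). Only the intervals of Ha and Hb overlapped, and fewer cells with a high level and less RNA per cell cannot be told apart in such sums. Ga was highest for 58 of the 78 genes and Gb lowest for 38. The ratio of the highest to the lowest library had a median log2 of 0.28, and 10 genes spanned at least 1.5-fold. No share of all measured genes is given beside these counts, so they are not read as particular to the members. The widest span was that of Mrps18b, with 36.8 CPM (Ga), 18.3 (Gb), 31.8 (Gc), 16.5 (Ha) and 17.5 (Hb). Mrps6 read 79.2, 44.1, 75.1, 43.1 and 36.9 CPM in the same order. Mrpl24 read 88.2, 81.7, 86.0, 87.3 and 85.9 CPM, a log2 span of 0.11. The order of libraries followed the share of Irf4/Nr4a1+ cells only at the top, with Ga and Gc first. Gb, Ha and Hb, with shares of 1.11%, 0.902% and 0.433%, ran in the reverse order of their shares.

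**Figure D5:**
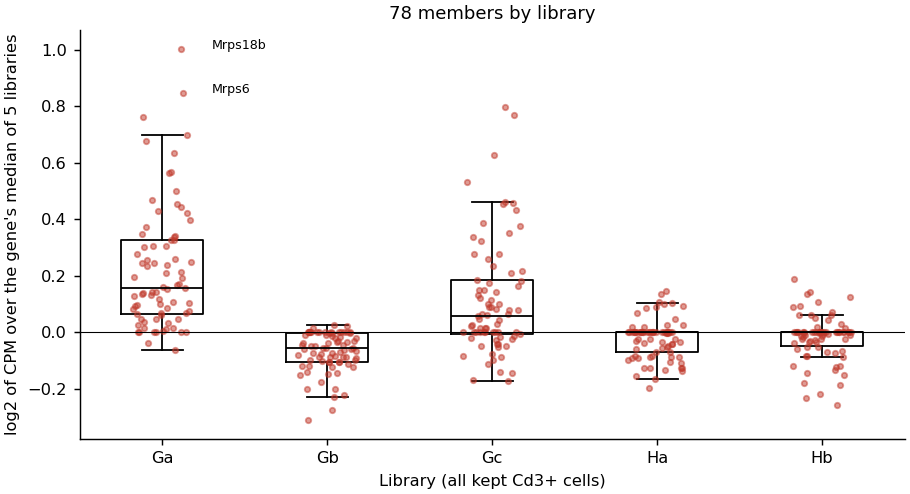
Log2 of each gene's CPM over its median of the 5 libraries in all kept Cd3+ cells, 1 point per gene, with boxes at the quartiles and medians and whiskers to the last gene within 1.5 box lengths. Points reach highest in Ga, where Mrps18b and Mrps6 are labelled, and lie mostly below 0 in Gb.

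The 78 genes lie on 17 chromosomes in GENCODE vM21 on GRCm38, with at most 11 on 1 of them, chromosome 11. Many start close to a neighbor on the opposite strand, and some of these pairs overlap, such as Mrpl18 with Tcp1 and Mrpl36 with Ndufs6. A protein-coding gene on the opposite strand started within 1000 bases for 33 of the 78 (42.3%), against 1836 of 10254 measured protein-coding genes (17.9%). Of these neighbors 26 were measured and 5 of them passed 1.5-fold in both libraries, beside 15.8% of measured genes. The 5 include Mrpl46, the neighbor of Mrps11 and itself a member. The median of their mean log2 ratio in Ga and Gc was 0.11, against 0.55 for the members beside them. Mrps18b starts 45 bases from Ppp1r10, a regulator of protein phosphatase 1, which had log2 ratios of -0.14 in Ga and -0.22 in Gc. Mrpl18 starts 644 bases from Tcp1, a subunit of the cytosolic chaperonin, where the neighbor was the higher one, with 1.09 and 1.08. Mrpl36 and the complex I gene Ndufs6 start 29 bases apart and were both higher, with 0.86 and 0.72 for Mrpl36 and 0.95 and 0.94 for Ndufs6. In all, 30 members overlap a gene on the opposite strand and 3 a gene on the same strand, and the sources used here do not say whether counting used strand.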

How the data were processed

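The authors deposited 2 matrices of UMI counts, each aggregated over libraries. Per the submitters' processing notes they used Cell Ranger 6.0.0 and mm10, while the file headers name cellranger 7.1.0. Depth equalisation, intron counting and strand setting are not given in the sources used here. Suffixes could not be tied to samples, so the 5 libraries were kept unassigned. Per library, counts of kept Cd3+ cells were summed with Python 3.11.15, numpy 2.4.6, scipy 1.17.1 and pandas 2.3.3. Cells of at least 4000 UMIs were thinned without replacement (seed 11). Totals of 5′ ends are not scaled by transcript length, so levels are compared between cells, not between genes. Exact binomial intervals were used for ratios and shares and exact Poisson intervals for levels. Limits for shares of 0 among the erythroid cells were instead 3 divided by the number of cells. For single genes 0.5 was added to each count, and 11250 genes with at least 500 UMIs, without Irf4 and Nr4a1, counted as measured. No doublet caller was run. The ratio and thinning steps were checked on simulated data. Named were the 10 largest and 6 smallest mean log2 ratios over libraries with at least 500 Irf4/Nr4a1+ cells, the 6 members with the most UMIs, the S18 relatives and Mrps36, and in other lists genes at either end or chosen as examples. Members and lists were chosen with earlier results of these data known. Of columns with per-sample values 0 were left unused.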

Additional observations from a re-analysis of the deposited data

How the results depend on the processing

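In Ga and Gc the log2 ratio of the sum was above 0 under all 16 alternatives, from 0.53 to 0.78 in Ga and from 0.48 to 0.76 in Gc. It was 0.73 and 0.68 (Ga and Gc) with cells thinned to 2000 UMIs, 0.63 and 0.58 at 6000 UMIs, 0.62 and 0.57 with no thinning, and 0.57 and 0.54 with the class called on all UMIs. It was 0.73 and 0.71 with the class set by Irf4, 0.70 and 0.67 with Nr4a1, and 0.78 and 0.76 with at least 2 class UMIs. In cells with a Cd4 UMI before thinning and none of Foxp3 or Trdc it was 0.53 and 0.48. Scaled to the median ratio of measured genes (not run for the 3 small classes) it was 0.73 and 0.66. The ratios were 0.69 and 0.66 in cells of 8000 to 12000 UMIs, and 0.62 and 0.58 without Mrps6. The last 2 were chosen after seeing the data. In the small classes the direction was not stable, and the cause was not tested. Gb went to -0.23 at 2000 UMIs and 0.45 with no thinning. Ha went to 0.23 with no thinning, 0.26 with Irf4, -0.13 with Nr4a1 and -0.22 in the Cd4 cells. Hb turned to -0.24 at 2000 UMIs and to -0.022 in the Cd4 cells. At 2-fold 16 (Ga) and 14 (Gc) members were higher, which follows from the stricter line. Members lower past the line numbered 3 (Ga) and 1 (Gc) at the lower line tried, 1 in each with Nr4a1, and 1 in Ga in the Cd4 cells and in the cells of 8000 to 12000 UMIs. Shares of all measured genes under these alternatives are not given, so these counts are not read as particular to the members. No named member past 1.5-fold changed sign. Some lower-end members, below 0 in Ga and Gc in the main setting, did cross 0 under an alternative. Their highest log2 ratios in either library were 0.16 (Mrps35), 0.07 (Mrpl14 and Mrpl58) and 0.01 (Mrpl18). Mrpl34 stayed below 0, from -0.75 to -0.09.

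Levels in all kept cells kept Ga highest, Gc next and Gb lowest under every alternative run. In Ga, Gb, Gc, Ha and Hb they were 2884, 2501, 2710, 2601 and 2643 CPM in the Cd4 cells, 3010, 2494, 2803, 2577 and 2591 in cells of 8000 to 12000 UMIs, and 3908, 3197, 3597, 3312 and 3351 without mt- genes, cytosolic ribosomal genes and Malat1 in the total. In Ga, Gb, Gc and Ha they were 3111, 2543, 2889 and 2632 with at least 2 Cd3 UMIs, 3056, 2524, 2841 and 2641 at 6000 UMIs, and 3062, 2516, 2844 and 2617 without the 6% deepest cells. At 2000 UMIs they were 3029, 2535 and 2814 in Ga, Gb and Gc. The other seed and the median ratio were not run for levels, which use all UMIs. No paired analysis was possible because each group has 1 sample and no library is assigned to a sample. Counting intervals leave out differences between cells, cultures and animals, and in Gb, Ha and Hb the depth does not show single members.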
